A study of Drosophila melanogaster with 9 samples.

Results

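The genes described here encode the protein synthesis factors of the fly and the enzymes that load amino acids onto tRNAs. They were chosen by name: a FlyBase symbol that begins with eIF, eEF or eRF, or that ends in RS or RS-m and belongs to an aminoacyl-tRNA synthetase. Of the 17611 genes in the deposited table, 89 met this rule. They comprise 44 initiation factors, 8 elongation factors, 2 release factors, 20 cytosolic synthetases and 15 mitochondrial synthetases. Transcripts were measured by poly-A RNA sequencing of Malpighian tubules, the renal organ of Drosophila melanogaster, in 3 genotypes with 3 libraries each. All flies carried the driver esg-Gal4, its temperature-sensitive brake tub-Gal80ts and the marker UAS-GFP. The yki3SA+ITP-i flies also carried UAS-Yki-3SA, which makes active Yorkie, a transcriptional co-activator that drives growth, and UAS-ITP-i, which targets the peptide hormone ITP by RNA interference. To the shared transgenes the yki3SA flies added UAS-Yki-3SA alone, and the control flies nothing. All groups were virgin flies held for 6 to 8 days at 18 °C and then for 8 days at 29 °C, the temperature that releases Gal80ts, and RNA came from 80 pooled tubules per genotype. The esg driver acts in progenitor cells of the gut and of the tubule and not in the principal and stellate cells that form the tubule wall. Nothing in the labels states that the libraries of a genotype are separate cultures, so p-values measure the spread between these libraries, which may be technical. Titles mark the control and yki3SA libraries, but not the yki3SA+ITP-i libraries, as re-analysed, and no group carries a neutral RNAi transgene. Batch and genotype therefore cannot be told apart in the comparisons with yki3SA+ITP-i.

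Translation begins when eIF2 brings the initiator tRNA to the small ribosomal subunit, eIF3 holds the complex together, and the eIF4 factors recruit capped mRNA. The exchange factor eIF2B recharges eIF2 with GTP and is the point at which stress kinases slow initiation. During elongation eEF1A delivers each charged tRNA and eEF2 moves the ribosome along, and at a stop codon eRF1 and eRF3 free the finished protein. Synthetases charge the tRNAs, with separate enzymes for the cytosol and for mitochondria in most cases. The tubule itself is an epithelium rich in mitochondria and ion pumps.

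Library totals were 34640437 to 49338340 counts, and the 89 genes took 2.2% to 2.55% of the counts of a library. Levels are given in CPM, counts relative to library size after scaling with TMM factors. A gene was called when the Benjamini-Hochberg adjusted p of edgeR's quasi-likelihood test was under 0.05 over the 10253 genes tested. ITP itself had 51.7, 63.7 and 60.4 CPM in yki3SA+ITP-i and 56.8, 77 and 71.2 CPM in yki3SA, which overlap (log2 fold change -0.22, adjusted p = 0.35), against 32.7, 33.5 and 44.7 CPM in control. Defining markers of the tubule were present: principal cell markers summed to 16800 to 19000 CPM in yki3SA+ITP-i, 13500 to 17000 CPM in yki3SA and 18500 to 21700 CPM in control, and stellate cell markers to 976 to 1030, 927 to 1080 and 1230 to 1420 CPM in these groups. Both sums were lower in yki3SA than in control without overlap. With total-count scaling both overlapped: 16300 to 18000 in yki3SA against 17500 to 19100 in control for principal cells, and 1090 to 1180 against 1130 to 1350 for stellate cells. Of 12 principal cell markers, 4 were called lower and 1 higher in yki3SA than in control (1 and 1 with total-count scaling). Of 7 stellate cell markers, 2 were called lower and 0 higher (0 and 0 with total-count scaling). Of all tested genes, 14.0% were lower and 16.2% higher. Renal stem and progenitor cell markers summed to 7.09 to 16 CPM in yki3SA+ITP-i, 9.63 to 25.9 CPM in yki3SA and 10.5 to 11.6 CPM in control, which overlap. Of these 4 markers, 1 was higher in yki3SA than in control and 1 was lower in yki3SA+ITP-i than in yki3SA. Markers of other tissues also moved with the groups. Together 14 fat body markers had 2330 to 3980 CPM in yki3SA+ITP-i, 353 to 563 CPM in yki3SA and 3220 to 6110 CPM in control, with no marker at 0 in all libraries. The 16 gut enterocyte markers, 1 of them at 0 in all libraries, summed to 161 to 382 CPM in yki3SA+ITP-i, 22.4 to 122 CPM in yki3SA and 358 to 1080 CPM in control. The 20 ovary and early embryo markers, none at 0 throughout, summed to 61.5 to 200 CPM in yki3SA+ITP-i, 12.6 to 108 CPM in yki3SA and 149 to 322 CPM in control. Hemocyte markers summed to 57.1 to 89.3 CPM in yki3SA+ITP-i, 43.6 to 50.1 CPM in yki3SA and 99.8 to 165 CPM in control, and 5 of 10 tested were lower in yki3SA than in control. Visceral muscle markers summed to 1140 to 1390 CPM in yki3SA+ITP-i, 909 to 1080 CPM in yki3SA and 950 to 1000 CPM in control, and 5 of 13 were higher in yki3SA+ITP-i than in yki3SA (0 with total-count scaling). Enteroendocrine markers did not move as a list: of 8 tested, Orcokinin and CCHa1 rose and CCHa2 fell in yki3SA against control, with a median log2 fold change of -0.23. Their sum, 27.6 to 32.8 CPM in yki3SA+ITP-i, 81.4 to 116 CPM in yki3SA and 27.4 to 30.1 CPM in control, was mostly Orcokinin in yki3SA (108, 99.5 and 74.7 CPM). With the fat body or the gut sum as a covariate, every call described here ended in yki3SA against control and in yki3SA+ITP-i against yki3SA. Since those sums follow the genotype, their part in the results cannot be told apart from it. In bulk tissue, fewer cells of a type and less RNA per cell cannot be told apart either.

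With TMM scaling, members were called about as often as other genes. In yki3SA against control, 12 of the 81 tested members were higher and 11 were lower, where 16.2% and 14.0% of all tested genes were (12 and 11 of 81 are 14.8% and 13.6%). Called in either direction were 28.4% of members and 30.1% of all genes. The median log2 fold change was 0.04 over members and 0.07 over all genes. In yki3SA+ITP-i against yki3SA, 8 members were higher and 11 were lower, against 10.6% and 10.1% of all genes (23.5% of members and 20.7% of all genes in either direction), and the medians were both -0.04. The yki3SA+ITP-i and control libraries differed least, with 2 members higher and 6 lower, against 6.37% and 4.14% of all genes (9.88% and 10.5% in either direction), and medians of 0.01 and 0.00. Of all genes, 5.13% rose and 7.48% fell by at least 2-fold in yki3SA against control, 6.45% and 2.17% in yki3SA+ITP-i against yki3SA, and 4.5% and 1.93% in yki3SA+ITP-i against control; among members 1 rose and 2 fell, 0 and 1, and 0 and 1. The libraries of the groups did not overlap for 40 members in yki3SA against control, 37 in yki3SA+ITP-i against yki3SA and 31 in yki3SA+ITP-i against control, where they did not for 45.8%, 41.8% and 30.7% of all genes. The comparisons share libraries, so their values are given side by side and not as separate evidence. Scaling by total counts alone moves the median of all genes to 0.37, -0.24 and 0.09 in the order above, and the members' medians to 0.32, -0.24 and 0.11. It turns the split in yki3SA against control to 43 members higher and 5 lower, the split in yki3SA+ITP-i against yki3SA to 2 higher and 27 lower, and that in yki3SA+ITP-i against control to 5 higher and 2 lower. Of 50 calls over the 3 comparisons, 16 stood whichever single library was left out, 12 of them in yki3SA against control.

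**Figure D1:**
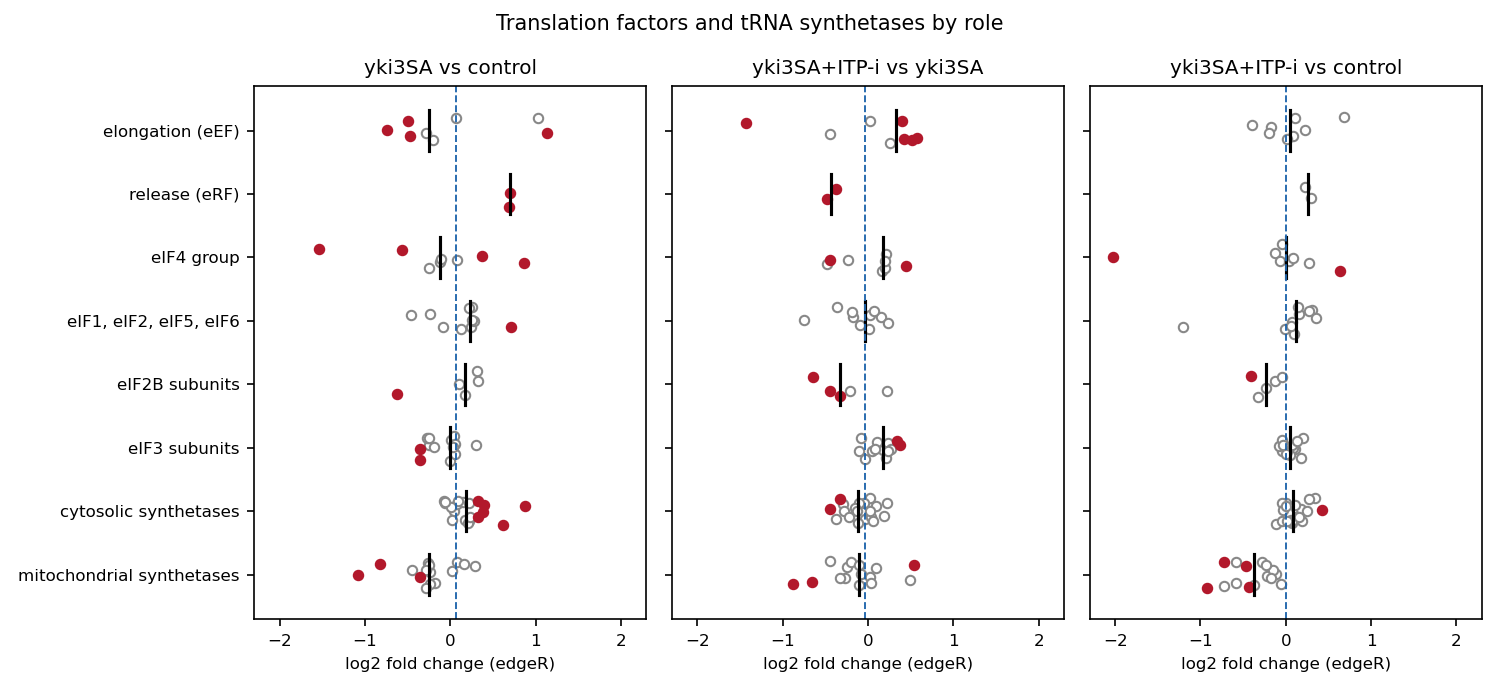
Log2 fold change (edgeR, x axis) of each tested member by role in the 3 comparisons. Red points passed an adjusted p of 0.05, open points did not, black bars are medians of the role and the dashed line is the median of all tested genes. In yki3SA against control the elongation median is -0.25, the release median 0.69 and the cytosolic synthetase median 0.19.

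Elongation factors held the most abundant members, and 3 of 8 fell in tubules of yki3SA flies (37.5%, against 14.0% of all genes). In yki3SA against control, eEF1alpha1, eEF1gamma and eEF5 fell and eEFSec rose, with a median log2 fold change of -0.25 (0.04 with total-count scaling, 3 higher and 1 lower). In yki3SA+ITP-i against yki3SA, eEF1alpha1, eEF5, eEF1beta and eEF2 rose and eEF1alpha2 fell (50.0% and 12.5%, against 10.6% and 10.1% of all genes). The median was 0.33 (0.14 with total-count scaling, 2 higher and 1 lower). None was called in yki3SA+ITP-i against control, where log2 fold changes ran from -0.40 to 0.68.

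The carrier of charged tRNA, eEF1alpha1, had 8460, 8690 and 7840 CPM in yki3SA+ITP-i, 6330, 5460 and 5050 CPM in yki3SA, against 10100, 8250 and 9700 CPM in control. The yki3SA libraries lay below all others, while yki3SA+ITP-i and control overlapped. The level in yki3SA was 0.6 times that in control (log2 -0.74 ± 0.13 SE, adjusted p = 0.0026). In yki3SA+ITP-i it was 1.48 times that in yki3SA (0.57 ± 0.13, adjusted p = 0.014), which was lost without yki3SA 2, yki3SA+ITP-i 1 or yki3SA+ITP-i 2 (log2 0.51 to 0.68 over the 9 fits). This gene alone made up 31.8% to 32.6% of all members' counts in yki3SA+ITP-i, 26.1% to 27.6% in yki3SA and 33.4% to 36.6% in control. The fat body and gut sums above were also lowest in yki3SA, and a link between them and this gene was not tested. With the fat body sum as a covariate the log2 fold change in yki3SA against control was -0.28 (adjusted p = 0.988).

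The exchange factor subunit eEF1gamma had 1590, 1530 and 1490 CPM in yki3SA+ITP-i, 1410, 1230 and 1200 CPM in yki3SA, against 1750, 1710 and 1840 CPM in control. The 3 groups did not overlap, with yki3SA lowest. It was lower in yki3SA than in control (log2 -0.47 ± 0.11, adjusted p = 0.0098), but not called with total-count scaling (log2 -0.18). For its partner eEF1beta the levels were 813, 713 and 772 CPM in yki3SA+ITP-i, 647, 554 and 519 CPM in yki3SA, against 640, 648 and 689 CPM in control, with yki3SA+ITP-i above both others. The rise against yki3SA (log2 0.42 ± 0.12, adjusted p = 0.033) ended without yki3SA 2 or 3 or without any 1 of the yki3SA+ITP-i libraries (log2 0.36 to 0.53). The translocase eEF2 had 4950, 5120 and 4570 CPM in yki3SA+ITP-i, 4170, 3500 and 3430 CPM in yki3SA, against 4760, 4090 and 4740 CPM in control. Its libraries in yki3SA+ITP-i were all above those in yki3SA (log2 0.40 ± 0.12, adjusted p = 0.0453), and the call stood only with all libraries or without yki3SA 1 (log2 0.36 to 0.51 over the 9 fits).

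The factor eEF5, the fly form of eIF5A, helps ribosomes through difficult peptide bonds and works only once a lysine has been turned into hypusine. It had 650, 596 and 633 CPM in yki3SA+ITP-i, 515, 402 and 401 CPM in yki3SA, against 640, 563 and 647 CPM in control, so yki3SA was lowest without overlap. The log2 fold change was -0.49 ± 0.13 in yki3SA against control (adjusted p = 0.018) and 0.51 ± 0.13 in yki3SA+ITP-i against yki3SA (adjusted p = 0.021). The first call ended without control 1, control 3, yki3SA 2 or yki3SA 3 (log2 -0.65 to -0.45) and with total-count scaling (-0.20). The second ended without yki3SA 2, yki3SA 3 or yki3SA+ITP-i 1 (0.46 to 0.66).

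The gene nero encodes deoxyhypusine hydroxylase, the enzyme of the last step of hypusine formation. It had 47.3, 47.2 and 48.1 CPM in yki3SA+ITP-i, 116, 80.4 and 73.5 CPM in yki3SA, against 30.9, 26.9 and 33.6 CPM in control, with no overlap between groups. Its level in yki3SA was 2.95 times that in control (log2 1.56 ± 0.17, adjusted p = 1.5e-04). In yki3SA+ITP-i it was 0.529 times that in yki3SA (-0.92 ± 0.17, adjusted p = 0.0051) and 1.56 times that in control (0.64 ± 0.17, adjusted p = 0.036). The last call stood only with all libraries or without yki3SA 1 or yki3SA 3 (log2 0.55 to 0.70). Dhps, which makes the first step of the modification, was not called, with log2 0.47 in yki3SA against control (adjusted p = 0.061).

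The exchange factor subunit eEF1delta had 112, 109 and 101 CPM in yki3SA+ITP-i, 120, 98.3 and 98.7 CPM in yki3SA, against 104, 90.6 and 107 CPM in control, and was called in none of the comparisons. The other 2 elongation genes were rare. eEFSec, which delivers selenocysteine, had 3.37, 3.45 and 4.97 CPM in yki3SA+ITP-i, 4.28, 5.69 and 6.13 CPM in yki3SA, against 2.16, 2.5 and 2.71 CPM in control. Both groups with UAS-Yki-3SA lay above control and overlapped each other. It was 2.18 times as high in yki3SA as in control (log2 1.13 ± 0.26, adjusted p = 0.01), the only called member with a rise of 2-fold or more there. The second eEF1A gene, eEF1alpha2, had 1.93, 2.04 and 3.86 CPM in yki3SA+ITP-i, 8.7, 6.4 and 6.01 CPM in yki3SA, against 1.92, 3.43 and 5 CPM in control. Here yki3SA was highest without overlap, the reverse of eEF1alpha1. It was 0.372 times as high in yki3SA+ITP-i as in yki3SA (log2 -1.43 ± 0.40, adjusted p = 0.032), which was lost without yki3SA 1 or 2 or without yki3SA+ITP-i 1 or 2 (log2 -1.82 to -1.23). In yki3SA against control its log2 fold change was 1.03 (adjusted p = 0.075). How the authors' counting treated reads that match both eEF1A genes is not stated, and the likeness of their sequences was not examined. The level of the rare copy is therefore uncertain.

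**Figure D2:**
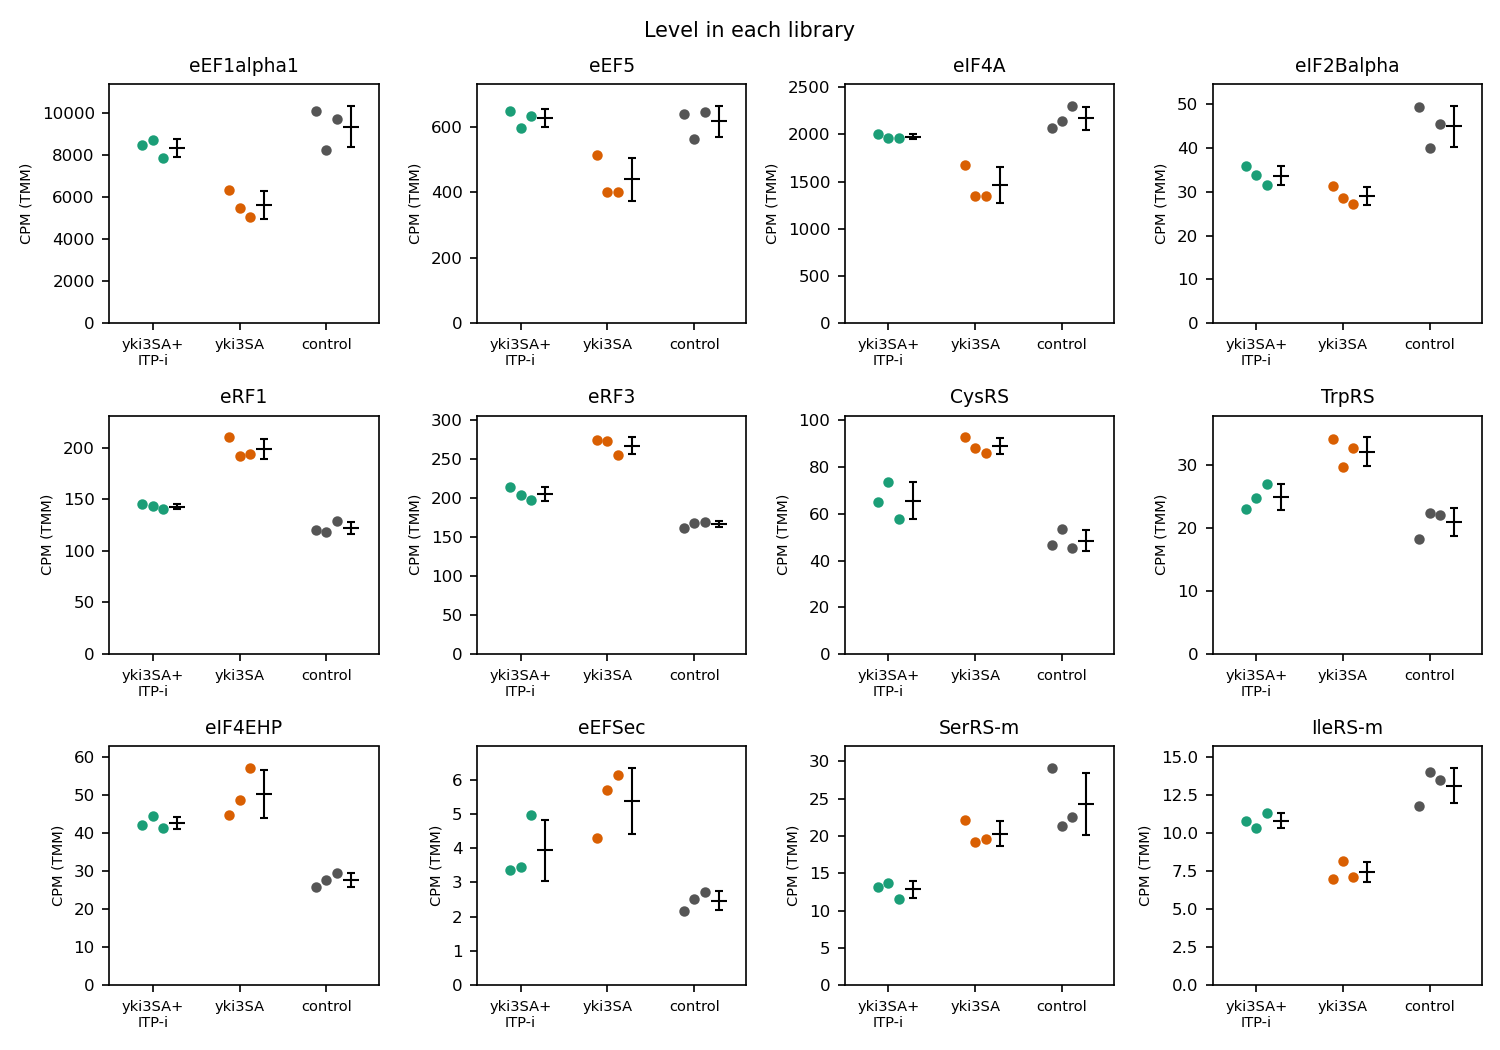
CPM (TMM) of 12 members in each library (points), with the mean and SD of 3 libraries beside them, for yki3SA+ITP-i, yki3SA and control from left to right. The top row holds members that are lowest in yki3SA; in the middle row eRF1, eRF3, CysRS and TrpRS are highest in yki3SA; in the bottom row SerRS-m is lowest in yki3SA+ITP-i, with 11.6 to 13.7 CPM.

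Both release factors rose in tubules of yki3SA flies, as did 16.2% of all tested genes. eRF1, which reads the stop codons, had 145, 143 and 140 CPM in yki3SA+ITP-i, 210, 192 and 194 CPM in yki3SA, against 120, 118 and 129 CPM in control. Its partner GTPase eRF3 had 214, 204 and 197 CPM in yki3SA+ITP-i, 274, 273 and 255 CPM in yki3SA, against 162, 168 and 169 CPM in control. For both genes yki3SA was highest, control lowest and no libraries of different groups overlapped. In yki3SA against control eRF1 was 1.62 times as high (log2 0.70 ± 0.09, adjusted p = 4.8e-04) and eRF3 1.61 times (0.69 ± 0.09, adjusted p = 5.6e-04). Both fell in yki3SA+ITP-i against yki3SA, eRF1 with log2 -0.48 ± 0.09 (adjusted p = 0.0069) and eRF3 with -0.38 ± 0.09 (adjusted p = 0.018). The eRF3 call ended without yki3SA 2, yki3SA+ITP-i 1 or yki3SA+ITP-i 2 (log2 -0.41 to -0.34). Neither was called in yki3SA+ITP-i against control, at log2 0.22 (adjusted p = 0.17) and 0.30 (adjusted p = 0.068). Relative to each other, eRF3 had 1.44 ± 0.0332 times the counts of eRF1 in yki3SA+ITP-i, 1.35 ± 0.0613 times in yki3SA and 1.36 ± 0.0597 times in control (SD, n = 3), within a range of 1.31 to 1.47 over all libraries. With the fat body sum as a covariate the log2 fold changes in yki3SA against control were 0.97 and 0.92, larger than without it but not called (adjusted p = 0.895 and 0.897).

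Among the eIF4 factors, 8 of 13 were tested. In yki3SA against control eIF4EHP and eIF4B rose and eIF4A and eIF4E3 fell, with a median of -0.12 (0.17 with total-count scaling). These are 25.0% in each direction, against 16.2% of all genes higher and 14.0% lower. eIF4EHP binds the cap without recruiting eIF4G and so keeps selected mRNAs silent. It had 42, 44.4 and 41.3 CPM in yki3SA+ITP-i, 44.7, 48.7 and 57 CPM in yki3SA, against 25.8, 27.5 and 29.4 CPM in control. Both groups with UAS-Yki-3SA lay above control without overlap. It was 1.82 times as high in yki3SA as in control (log2 0.86 ± 0.12, adjusted p = 5.7e-04) and 1.54 times as high in yki3SA+ITP-i as in control (0.63 ± 0.12, adjusted p = 0.0075). These calls stood whichever library was left out. Its difference between yki3SA+ITP-i and yki3SA was not called (log2 -0.24 ± 0.12, adjusted p = 0.17). The cap-binding factor of ordinary initiation, eIF4E1, had 186, 193 and 184 CPM in yki3SA+ITP-i, 178, 158 and 168 CPM in yki3SA, against 191, 183 and 175 CPM in control and was called nowhere.

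The RNA helicase eIF4A had 2010, 1960 and 1960 CPM in yki3SA+ITP-i, 1680, 1350 and 1350 CPM in yki3SA, against 2070, 2140 and 2300 CPM in control, with yki3SA lowest and no overlap between groups. It fell in yki3SA against control (log2 -0.57 ± 0.12, adjusted p = 0.0061). It rose in yki3SA+ITP-i against yki3SA (0.44 ± 0.12, adjusted p = 0.029), a call lost without yki3SA 2 or 3 or any 1 yki3SA+ITP-i library (log2 0.39 to 0.57). Its cofactor eIF4B moved the opposite way, with 18.5, 19.4 and 20 CPM in yki3SA+ITP-i, 26.5, 24.7 and 27.7 CPM in yki3SA, against 19.2, 19.9 and 21.8 CPM in control. Here yki3SA was highest without overlap. The rise against control (log2 0.37 ± 0.11, adjusted p = 0.03) stood in the fits without yki3SA+ITP-i 1 or 3 but ended in the other 7 (0.31 to 0.40). The fall in yki3SA+ITP-i against yki3SA (-0.45 ± 0.11, adjusted p = 0.02) ended without yki3SA 3, yki3SA+ITP-i 1 or yki3SA+ITP-i 2 (-0.47 to -0.40). The other cofactor, eIF4H1, and the scaffolds eIF4G1 and eIF4G2 were called nowhere. At the edge of detection, eIF4E3, a cap-binding form required in the male germ line, had 8, 10 and 13 counts in yki3SA+ITP-i, 12, 16 and 23 counts in yki3SA and 33, 28 and 52 counts in control. It was lower than in control in yki3SA+ITP-i (log2 -2.02 ± 0.51, adjusted p = 0.033) and in yki3SA (-1.54 ± 0.50, adjusted p = 0.042). The second call ended whichever library was left out (-1.76 to -1.16). The first stood only without control 2 or yki3SA 1 (-2.22 to -1.63).

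Of the 10 genes of the eIF2 complex, start codon choice and subunit joining, 1 was called. With total-count scaling 7 of them rose and none fell in yki3SA against control (median 0.52), and 4 fell in yki3SA+ITP-i against yki3SA (median -0.24). eIF6, which keeps free large ribosomal subunits from joining small ones, had 41.4, 46 and 32.4 CPM in yki3SA+ITP-i, 63.9, 47.4 and 42.4 CPM in yki3SA, against 34.6, 26.3 and 32.8 CPM in control. All yki3SA libraries lay above control, and yki3SA+ITP-i overlapped both. It was 1.64 times as high in yki3SA as in control (log2 0.71 ± 0.19, adjusted p = 0.018). The call ended without control 2, control 3 or yki3SA 1 (log2 0.49 to 0.81). The subunits eIF2alpha, eIF2beta and eIF2gamma had log2 fold changes of 0.28, 0.25 and 0.22 in yki3SA against control and none was called. The median of the class was 0.23 there, -0.04 in yki3SA+ITP-i against yki3SA and 0.12 in yki3SA+ITP-i against control.

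All 5 eIF2B subunits were tested, and 1 was called in yki3SA against control (20.0%, against 30.1% of all genes). The regulatory subunit eIF2Balpha had 35.8, 33.8 and 31.6 CPM in yki3SA+ITP-i, 31.4, 28.6 and 27.2 CPM in yki3SA, against 49.3, 40.1 and 45.5 CPM in control. Both groups with UAS-Yki-3SA lay below control without overlap. The fall was 0.646-fold in yki3SA against control (log2 -0.63 ± 0.12, adjusted p = 0.0032) and 0.75-fold in yki3SA+ITP-i against control (-0.41 ± 0.12, adjusted p = 0.0486). The second call stood only with all libraries or without control 2 or yki3SA 1 (-0.50 to -0.35), and was lost with total-count scaling (-0.32, adjusted p = 0.0771). The other 4 subunits had positive, uncalled log2 fold changes of 0.10 to 0.33 in yki3SA against control, and all 4 rose there with total-count scaling.

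Of those 4, 3 fell in yki3SA+ITP-i against yki3SA, where 10.1% of all genes did. With DESeq2 size factors or upper-quartile scaling only 1 fell, eIF2Bgamma, and with total-count scaling all 3 did. eIF2Bgamma, of the catalytic part of the complex, had 19.8, 19.2 and 24.7 CPM in yki3SA+ITP-i, 32.9, 33.8 and 33.3 CPM in yki3SA, against 24, 27.7 and 28 CPM in control, with yki3SA highest without overlap. Its log2 fold change was -0.65 ± 0.13 (adjusted p = 0.0077), and the call stood without any single library. The regulatory subunit eIF2Bdelta had 41.7, 43.7 and 39.1 CPM in yki3SA+ITP-i, 50.1, 53.9 and 52.3 CPM in yki3SA, against 47.6, 50.6 and 47.9 CPM in control. The groups yki3SA+ITP-i and yki3SA did not overlap (log2 -0.33 ± 0.09, adjusted p = 0.033), but the call ended whichever library was left out (-0.35 to -0.29). eIF2Bbeta had 56.6, 58 and 54.7 CPM in yki3SA+ITP-i, 92.7, 70.6 and 66.5 CPM in yki3SA, against 69.5, 59.7 and 56.5 CPM in control. It was lower in yki3SA+ITP-i than in yki3SA (-0.44 ± 0.14, adjusted p = 0.0484), a call that held with 1 library left out only without yki3SA 3 (-0.52 to -0.26). The call was also lost with DESeq2, with limma-voom and with either other filter.

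The eIF3 complex, which bridges the small subunit and the mRNA factors, had few calls. Of 13 tested subunits, eIF3f1 and eIF3g1 fell in yki3SA against control (15.4%, against 14.0% of all genes). eIF3g1 and eIF3i rose in yki3SA+ITP-i against yki3SA (15.4%, against 10.6%), and none was called in yki3SA+ITP-i against control. Log2 fold changes of the 13 ran from -0.36 to 0.30, from -0.10 to 0.38 and from -0.08 to 0.20 in these comparisons, with medians of 0.00, 0.17 and 0.05. The first median is 0.29 with total-count scaling, where 7 rose and none fell, and -0.05 with DESeq2 size factors, and the second -0.03 with total-count scaling, where none was called. eIF3g1 had 134, 129 and 128 CPM in yki3SA+ITP-i, 117, 93.9 and 89.7 CPM in yki3SA, against 135, 120 and 131 CPM in control, with yki3SA lowest without overlap. Its log2 fold changes were -0.36 ± 0.12 in yki3SA against control (adjusted p = 0.0409) and 0.38 ± 0.12 in yki3SA+ITP-i against yki3SA (adjusted p = 0.0453). The first ended without control 1 or 3, yki3SA 2 or 3 or yki3SA+ITP-i 1 (-0.52 to -0.31), and the second stood only without control 2 or yki3SA 1 (0.31 to 0.52). eIF3f1 had 272, 245 and 262 CPM in yki3SA+ITP-i, 244, 206 and 195 CPM in yki3SA, against 263, 279 and 281 CPM in control. Control lay above yki3SA (log2 -0.35 ± 0.11, adjusted p = 0.04), and the call ended without any 1 control library, yki3SA 2, yki3SA 3 or yki3SA+ITP-i 1 (-0.48 to -0.31). eIF3i had 209, 211 and 205 CPM in yki3SA+ITP-i, 185, 150 and 160 CPM in yki3SA, against 198, 189 and 209 CPM in control. Its rise against yki3SA (0.34 ± 0.11, adjusted p = 0.0495) stood only with all libraries or without yki3SA 1 (0.29 to 0.45).

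Cytosolic synthetases that passed the test in yki3SA against control all rose. Of 20 genes, CysRS, TrpRS, LeuRS, SerRS, ThrRS and ValRS were higher in yki3SA than in control and none was lower, with a median log2 fold change of 0.19. The 6 are 30.0% of the class, against 16.2% of all genes. All 20 ran from -0.07 to 0.88, and 17 were positive. The count was 16 higher and 0 lower with total-count scaling and 3 higher with DESeq2 size factors or upper-quartile scaling. CysRS and LeuRS fell and none rose in yki3SA+ITP-i against yki3SA, with a median of -0.11 (-0.31 with total-count scaling, 10 lower). CysRS was the only call in yki3SA+ITP-i against control (5.0% higher, against 6.37% of all genes), with a median of 0.09.

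CysRS, which charges cysteine tRNA, had 65.2, 73.8 and 57.8 CPM in yki3SA+ITP-i, 92.8, 88.2 and 86.1 CPM in yki3SA, against 46.6, 53.6 and 45.4 CPM in control. The groups were ordered yki3SA, yki3SA+ITP-i and control from high to low, without overlap. It was 1.83 times as high in yki3SA as in control (log2 0.88 ± 0.12, adjusted p = 5.2e-04). In yki3SA+ITP-i it was 0.737 times as high as in yki3SA (-0.44 ± 0.12, adjusted p = 0.025) and 1.35 times as high as in control (0.43 ± 0.12, adjusted p = 0.0412). Leaving out any 1 yki3SA library, yki3SA+ITP-i 1 or yki3SA+ITP-i 3 ended the call against yki3SA (-0.52 to -0.36). The call in yki3SA+ITP-i against control stood only without control 2 or yki3SA+ITP-i 3 (0.33 to 0.52). TrpRS had 23, 24.7 and 27 CPM in yki3SA+ITP-i, 34.1, 29.6 and 32.6 CPM in yki3SA, against 18.3, 22.4 and 22 CPM in control. It was highest in yki3SA, 1.53 times as high as in control (log2 0.62 ± 0.13, adjusted p = 0.0056), which stood without any single library. Its difference in yki3SA+ITP-i against yki3SA missed the threshold (-0.37 ± 0.13, adjusted p = 0.066).

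LeuRS had 74.4, 85.1 and 81.5 CPM in yki3SA+ITP-i, 97.8, 102 and 102 CPM in yki3SA, against 78.6, 83.1 and 78.8 CPM in control, with yki3SA above both others. Its log2 fold changes were 0.33 ± 0.09 in yki3SA against control (adjusted p = 0.021) and -0.33 ± 0.09 in yki3SA+ITP-i against yki3SA (adjusted p = 0.03). The first ended without control 1, control 3 or any 1 yki3SA library (0.29 to 0.33), and the second stood only with all libraries or without control 2 (-0.35 to -0.27). SerRS, ThrRS and ValRS had log2 fold changes of 0.38, 0.32 and 0.39 in yki3SA against control (adjusted p = 0.023, 0.028 and 0.0447). SerRS ended without any 1 control library, yki3SA 1 or yki3SA 2 (0.27 to 0.40). ThrRS stood only without control 2 or yki3SA+ITP-i 3 (0.27 to 0.34), and ValRS only without yki3SA+ITP-i 2 or 3 (0.32 to 0.43). AlaRS was called nowhere, with 164, 183 and 143 CPM in yki3SA+ITP-i, 179, 172 and 154 CPM in yki3SA, against 169, 167 and 155 CPM in control. GluProRS, the double enzyme of the multisynthetase complex, had log2 fold changes between -0.05 and 0.02 in the 3 comparisons.

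Of 15 mitochondrial synthetases, all tested, none rose and 3 fell in yki3SA against control (20.0%, against 14.0% of all genes). The median was -0.25 (0.04 with total-count scaling, 2 higher and 2 lower), with a range of -1.08 to 0.29 and 4 positive values. For yki3SA+ITP-i against control none rose and 4 fell (26.7%, against 4.14% of all genes). All 15 log2 fold changes were negative there and the median was -0.37 (-0.27 with total-count scaling, 0 higher and 1 lower). Against yki3SA, 1 rose and 2 fell in yki3SA+ITP-i (6.67% and 13.3%, against 10.6% and 10.1% of all genes). The median there was -0.11 (-0.31 with total-count scaling, 0 higher and 5 lower). SerRS-m, of whose exon bases 13.9% lie opposite Nagk, had 13.2, 13.7 and 11.6 CPM in yki3SA+ITP-i, 22.2, 19.2 and 19.6 CPM in yki3SA, against 29.1, 21.3 and 22.6 CPM in control. Its yki3SA+ITP-i libraries lay below all others, while yki3SA and control overlapped. It was 0.528 times as high in yki3SA+ITP-i as in control (log2 -0.92 ± 0.15, adjusted p = 0.0038), the one call of a member that stood under each of the 23 alternatives, marker covariates included. Against yki3SA it was 0.632 times as high (-0.66 ± 0.15, adjusted p = 0.014), and that call ended without yki3SA+ITP-i 1 (log2 -0.70 to -0.57 over the 9 fits).

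IleRS-m had 10.8, 10.3 and 11.3 CPM in yki3SA+ITP-i, 6.98, 8.15 and 7.11 CPM in yki3SA, against 11.8, 14 and 13.5 CPM in control, with no overlap between groups and yki3SA lowest. It was 0.566 times as high in yki3SA as in control (log2 -0.82 ± 0.14, adjusted p = 0.0025). Its rise in yki3SA+ITP-i against yki3SA (0.54 ± 0.14, adjusted p = 0.026) ended without yki3SA 1, yki3SA 3 or any 1 yki3SA+ITP-i library (0.51 to 0.63). GluRS-m had 6.59, 5.23 and 8.77 CPM in yki3SA+ITP-i, 4.53, 4.7 and 5.39 CPM in yki3SA, against 10.8, 9.88 and 10.2 CPM in control. Control was highest, and the yki3SA+ITP-i and yki3SA libraries overlapped. The level in yki3SA was 0.474 times that in control (-1.08 ± 0.21, adjusted p = 0.0045).

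AsnRS-m had 4.54, 3.39 and 4.57 CPM in yki3SA+ITP-i, 5.78, 8.28 and 8.91 CPM in yki3SA, against 5.75, 6.82 and 6.18 CPM in control. It was lowest in yki3SA+ITP-i, 0.544 times the level in yki3SA (log2 -0.88 ± 0.23, adjusted p = 0.024). The call ended without yki3SA 2, yki3SA 3, yki3SA+ITP-i 1 or yki3SA+ITP-i 2 (-1.02 to -0.73). LeuRS-m had 34.7, 36.5 and 35.9 CPM in yki3SA+ITP-i, 37, 39.1 and 39.5 CPM in yki3SA, against 52.9, 52.2 and 43 CPM in control, so both groups with UAS-Yki-3SA lay below control. It fell in yki3SA+ITP-i against control (-0.47 ± 0.11, adjusted p = 0.022) and in yki3SA against control (-0.36 ± 0.11, adjusted p = 0.032). The first ended without control 1, control 2 or any 1 yki3SA+ITP-i library (-0.57 to -0.43), and the second without control 1 or 2, any 1 yki3SA library or yki3SA+ITP-i 1 (-0.48 to -0.33). AlaRS-m had 32, 28.5 and 32.3 CPM in yki3SA+ITP-i, 34.6, 38.2 and 37.5 CPM in yki3SA, against 41.5, 45.5 and 38 CPM in control. ProRS-m had 8.13, 6.66 and 8.77 CPM in yki3SA+ITP-i, 9.11, 8.08 and 11.2 CPM in yki3SA, against 13.5, 14.4 and 10.9 CPM in control. Both were lower in yki3SA+ITP-i than in control, AlaRS-m with log2 -0.43 ± 0.11 (adjusted p = 0.034) and ProRS-m with -0.72 ± 0.19 (adjusted p = 0.04). Each of these calls ended without control 1, control 2 or any 1 yki3SA+ITP-i library (-0.51 to -0.37 for AlaRS-m, -0.84 to -0.63 for ProRS-m) and with total-count scaling or the replicate block.

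Ratios of summed counts within a library do not depend on how libraries are scaled. With 3 libraries against 3 no exact two-sided permutation test can go below p = 0.1, so they are given as descriptions. Cytosolic synthetases had 5.2, 5.75 and 5 times the counts of mitochondrial synthetases in yki3SA+ITP-i, 5.36, 5.21 and 4.96 times in yki3SA and 3.72, 3.94 and 4.29 times in control. Both groups with UAS-Yki-3SA lay above control and overlapped each other. Release factors had 2.14% ± 0.0576 of the counts of elongation factors in yki3SA+ITP-i, 4% ± 0.289 in yki3SA and 1.7% ± 0.148 in control (SD, n = 3), with no overlap between groups. The ratio of eIF4EHP to eIF4E1 was 0.225, 0.23 and 0.225 in yki3SA+ITP-i, 0.251, 0.309 and 0.339 in yki3SA and 0.135, 0.151 and 0.169 in control, again without overlap. The ratio of eIF2B to eIF2 subunits was lowest in yki3SA+ITP-i, at 0.548, 0.571 and 0.574, against 0.603, 0.66 and 0.619 in yki3SA and 0.672, 0.758 and 0.685 in control. Among the eIF2 subunits, eIF2gamma shares some exon bases with another gene on its strand, and how such reads were counted is not stated.

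**Figure D3:**
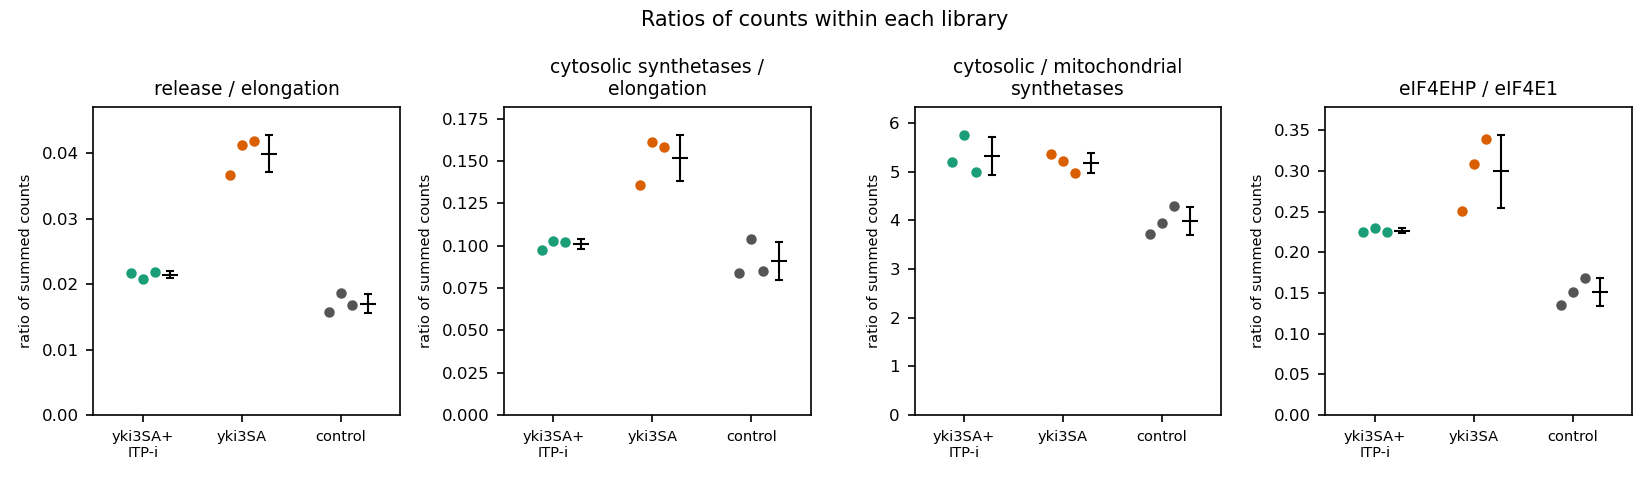
Ratios of summed counts within each library (points; mean and SD of 3 libraries beside them) for yki3SA+ITP-i, yki3SA and control. Release over elongation is highest in yki3SA at 4%, and cytosolic over mitochondrial synthetases is 5 to 5.75 in yki3SA+ITP-i, 4.96 to 5.36 in yki3SA and 3.72 to 4.29 in control.

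Counts of elongation factors were 0.161, 0.178 and 0.157 of those of the cytosolic ribosomal protein genes in yki3SA+ITP-i, 0.151, 0.16 and 0.162 in yki3SA and 0.166, 0.146 and 0.157 in control, and the groups overlapped. Of 85 tested ribosomal protein genes, 75 fell and none rose in yki3SA against control (median log2 -0.53), 39 rose and 1 fell in yki3SA+ITP-i against yki3SA (median 0.40), and 0 were called in yki3SA+ITP-i against control (median -0.13). The 75 and 39 are 88.2% and 45.9% of these genes, against 14.0% and 10.6% of all genes. With total-count scaling 32 fell and 2 rose in yki3SA against control (median -0.25), and 19 rose and 2 fell in yki3SA+ITP-i against yki3SA (median 0.21). Rack1, a protein of the small ribosomal subunit, had 1850, 1710 and 1790 CPM in yki3SA+ITP-i, 1330, 1160 and 1100 CPM in yki3SA, against 1900, 1880 and 2010 CPM in control. It was lowest in yki3SA, with log2 -0.69 ± 0.11 against control (adjusted p = 0.0016) and 0.58 ± 0.11 in yki3SA+ITP-i against yki3SA (adjusted p = 0.0068). Of 72 tested mitochondrial ribosomal protein genes, 10 fell and none rose in yki3SA against control, 13.9% lower against 14.0% of all genes. The median was -0.22 (0.06 with total-count scaling, 11 higher and 1 lower).

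**Figure D4:**
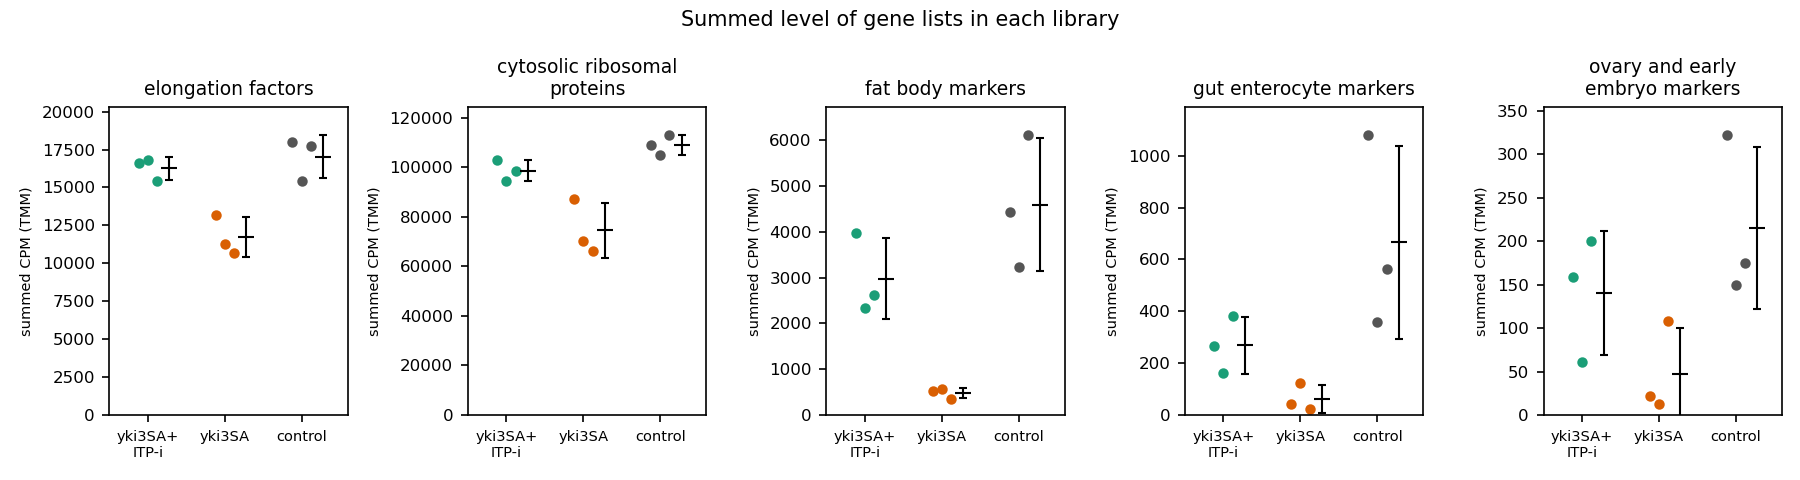
Summed CPM (TMM) of the elongation factors, the cytosolic ribosomal proteins and 3 marker lists in each library (points; mean and SD of 3 libraries beside them; the SD bar of the ovary list in yki3SA runs below the axis). All 5 sums are lowest on average in yki3SA, where the elongation factors hold 10700 to 13200 CPM, against 15400 to 18000 CPM in control.

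Genes that act on translation factors were described from 5 lists. In the list of the stress response and TOR, 5 of 19 genes rose and 1 fell in yki3SA against control, with a median log2 fold change of 0.34. These are 26.3% and 5.26%, against 16.2% and 14.0% of all genes. With total-count scaling 13 rose and 1 fell (median 0.64), and in yki3SA+ITP-i against yki3SA 11 fell and none rose. PEK, the kinase that acts on eIF2alpha under endoplasmic reticulum stress, had 96.5, 114 and 92.1 CPM in yki3SA+ITP-i, 53.4, 66.4 and 69.6 CPM in yki3SA, against 101, 152 and 111 CPM in control. It was lowest in yki3SA without overlap, with log2 -0.95 ± 0.17 against control (adjusted p = 0.003) and 0.68 ± 0.17 in yki3SA+ITP-i against yki3SA (adjusted p = 0.022). The second call ended without yki3SA 1, yki3SA+ITP-i 1 or yki3SA+ITP-i 2 (0.59 to 0.76). REPTOR-BP, a transcription factor that partners REPTOR, rose in yki3SA against control (0.63 ± 0.14, adjusted p = 0.0087), and so did crc, the fly ATF4, which shares 73.5% of its exon bases with CG46314 on the same strand (0.52 ± 0.12, adjusted p = 0.011), and the TOR activator Rheb (0.41 ± 0.10, adjusted p = 0.014). The crc call ended without control 1 (0.38 to 0.55) and the Rheb call without control 1, control 3 or yki3SA 1 (0.31 to 0.42). In yki3SA+ITP-i against yki3SA, Rheb (-0.55 ± 0.10, adjusted p = 0.0054), REPTOR-BP (-0.54 ± 0.14, adjusted p = 0.024) and Tsc1 (-0.40 ± 0.10, adjusted p = 0.024) fell. Of the 19 genes, 5.26% rose and 15.8% fell there, against 10.6% and 10.1% of all genes. The REPTOR-BP call ended without any 1 yki3SA library (-0.64 to -0.39), and the Tsc1 call without yki3SA 2, yki3SA 3, yki3SA+ITP-i 1 or yki3SA+ITP-i 2 (-0.45 to -0.32). None of the 19 was called in yki3SA+ITP-i against control.

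Of 13 other initiation regulators, Rack1 was the only call in yki3SA against control (3 higher and 1 lower with total-count scaling). That call is 7.69% of the list, against 30.1% of all genes called in either direction. Thor, the fly 4E-BP that blocks eIF4E1, had 614, 806 and 665 CPM in yki3SA+ITP-i, 554, 432 and 282 CPM in yki3SA, against 446, 520 and 436 CPM in control. It was higher in yki3SA+ITP-i than in yki3SA (log2 0.72 ± 0.22, adjusted p = 0.0453), but the call stood only with all libraries or without yki3SA 1 (0.51 to 0.98). Of 11 genes of factor modification and ribosome rescue, nero, Sbds, Dph2 and HBS1 rose in yki3SA against control and none fell (7 higher with total-count scaling). The 4 are 36.4% of the list, against 16.2% of all genes. Sbds, which removes eIF6 from the large subunit, had 17.1, 19.3 and 18.8 CPM in yki3SA+ITP-i, 29.4, 26.4 and 26 CPM in yki3SA, against 18.9, 19.9 and 18.1 CPM in control. Its log2 fold changes were 0.52 ± 0.11 in yki3SA against control (adjusted p = 0.0074) and -0.57 ± 0.11 in yki3SA+ITP-i against yki3SA (adjusted p = 0.0081). Dph2, of the pathway that modifies eEF2, had log2 0.61 ± 0.14 in yki3SA against control (adjusted p = 0.0088). HBS1, which rescues stalled ribosomes, had 0.39 ± 0.12 (adjusted p = 0.031), lost without control 2 or 3, yki3SA 1 or 2, or yki3SA+ITP-i 1 or 2 (0.28 to 0.43).

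Of 8 synthetase partners, AIMP2, a scaffold of the multisynthetase complex, and RtcB, a tRNA ligase, rose in yki3SA against control, and none fell (3 higher with total-count scaling, 1 with DESeq2 size factors). The 2 are 25.0% of the list, against 16.2% of all genes. RtcB had log2 0.47 ± 0.11 (adjusted p = 0.012), which was lost without control 3 or yki3SA 1 (0.36 to 0.49). AIMP2 had log2 0.35 ± 0.10 (adjusted p = 0.023) and ended without control 1 or 2 or any 1 yki3SA library (0.27 to 0.36). Its fall in yki3SA+ITP-i against yki3SA (-0.32 ± 0.10, adjusted p = 0.0422) ended whichever library was left out (-0.34 to -0.27). Of 10 mitochondrial translation factors, mRF1, the mitochondrial release factor, rose in yki3SA against control and mEFG1, mRRF2 and mIF2 fell. mRF1 had 15.7, 15 and 20 CPM in yki3SA+ITP-i, 20.4, 20.2 and 25.4 CPM in yki3SA, against 11.4, 12.5 and 11.4 CPM in control, with control lowest (log2 0.90 ± 0.16, adjusted p = 0.0024). The 3 falls (-0.52, -0.59 and -0.47) each ended with total-count scaling and in 5 of the 9 fits with 1 library left out. None of the 10 was called in either comparison with yki3SA+ITP-i.

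Levels per kb of exon set the members in order. The highest member of each role in control was eEF1alpha1 (3800 ± 399 CPM per kb), eIF4A (875 ± 48.9), eIF3f1 (211 ± 7.74), eIF2A (176 ± 8.47), TyrRS (54.9 ± 3.81), eIF2Bbeta (45.6 ± 4.99), eRF1 (39.3 ± 1.9) and PheRS-m (34.5 ± 0.737; SD, n = 3). TyrRS and SerRS did not differ beyond their spread in control, where SerRS had 54.2 ± 4.29 CPM per kb. SerRS led the cytosolic synthetases with 65.1 ± 2.42 CPM per kb in yki3SA+ITP-i and 70.6 ± 6.42 in yki3SA. Median levels were 27.5, 31.8 and 25.1 CPM per kb for cytosolic synthetases in yki3SA+ITP-i, yki3SA and control, and 6.87, 7.28 and 8.51 CPM per kb for mitochondrial ones.

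**Figure D5:**
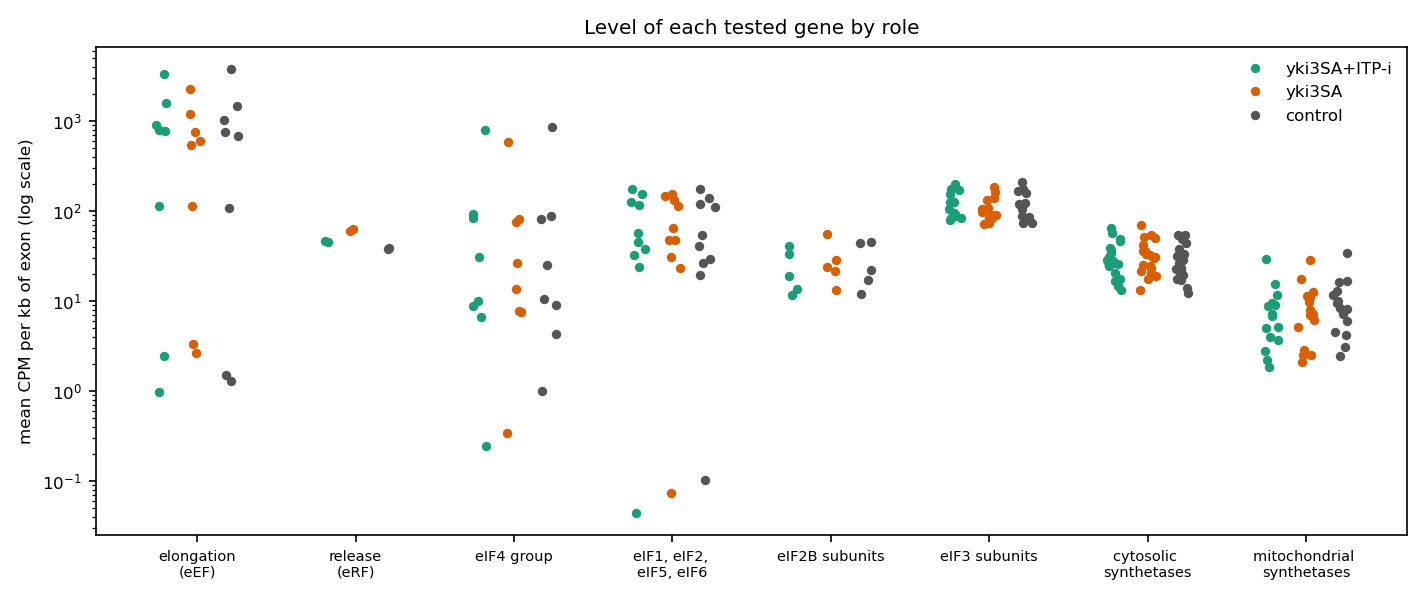
Mean CPM per kb of exon (log axis) of each of the 81 tested members by role, in yki3SA+ITP-i, yki3SA and control. Elongation factors reach 3800 CPM per kb in control and mitochondrial synthetases at most 34.5; the lowest point is eIF5.

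The 8 members left out of the tests were paralogs with few counts. eIF3d2, eIF3f2 and eIF4E4 had 0 counts in all 9 libraries, which allows up to 0.0904 CPM in the library where 3 counts weigh most. eIF3g2, eIF4E5, eIF4E6, eIF4E7 and eIF4H2 had at most 23 counts in a library. eIF5, the GTPase activator of eIF2 and a core initiation factor, was tested but had only 0.329, 0.051 and 0.0471 CPM in yki3SA+ITP-i, 0.191, 0.157 and 0.368 CPM in yki3SA, against 0.423, 0.242 and 0.332 CPM in control. In the Ensembl annotation 80.8% of its exon bases are shared with CG46312 on the same strand, and that gene had 0 counts in every library. How the authors' counting assigned reads of shared bases is not stated, and the level of eIF5 is uncertain.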

How the data were processed

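The authors deposited 1 table of unnormalized counts for 9 libraries, whose values are all whole numbers with differing totals. Per the submitters' processing notes TopHat, Cufflinks, HTSeq and DESeq were used; the sources used here name no version, role, genome build or strand setting. Of 17611 FlyBase IDs, 17552 matched a symbol. Genes were filtered with filterByExpr (minimum count 10), scaled with TMM factors (0.879 to 1.211) and tested over all 9 libraries with edgeR 4.0.16 in R 4.3.3 (quasi-likelihood F-test, group as the only term, 6 residual degrees of freedom, Benjamini-Hochberg adjustment over 10253 genes). Log2 fold changes use a prior count of 0.125. Summed levels and ratios take all genes of a list. Exon lengths and overlaps come from the Ensembl BDGP6 annotation, whose build may differ from the authors'. Floors of 3 counts cover counting error only. Members and lists were chosen with earlier results of these data known. Named genes were the 3 called members with the smallest p in each role, comparison and direction, all called members with a change of 2-fold or more and 1 CPM in the higher group, the highest member of each role, and up to 3 called genes per direction of each other list. Dhps and the uncalled members named (eIF4E1, the eIF2 subunits, AlaRS, GluProRS, AspRS, eIF5 and others) were chosen after their values were seen. Alternatives were DESeq2 1.42.0, limma-voom 3.58.1, 3 other scalings, 2 other filters, robust dispersions, 2-group fits, a replicate block, fits without each library or without yki3SA 3 and yki3SA+ITP-i 3 together, and marker sums as covariates. Tables and plots used Python 3.11.15, pandas 2.3.3 and matplotlib 3.10.9. The fitting step was tested on simulated counts with known changes.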

Additional observations from a re-analysis of the deposited data

How the results depend on the processing

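Counts of members higher and lower are given in the order yki3SA against control, yki3SA+ITP-i against yki3SA and yki3SA+ITP-i against control (12 and 11, 8 and 11, 2 and 6 as reported). They were 43 and 5, 2 and 27, and 5 and 2 with total-count scaling; 8 and 12, 8 and 8, and 1 and 6 with DESeq2 size factors; 8 and 14, 9 and 7, and 2 and 5 with upper-quartile scaling. Without a filter the member counts were 8 and 8, 2 and 8, and 1 and 2. All genes then gave 9.42% and 9.36%, 7.12% and 5.63%, and 4.29% and 2.78%. Fits of only 2 groups gave 12 and 7, 5 and 11, and 1 and 3 members. All genes then gave 14.6% and 13.0%, 10.7% and 10.6%, and 6.33% and 4.24%. DESeq2 gave 11 and 16, 12 and 10, and 3 and 6 members. All genes then gave 15.9% and 17.2%, 14.7% and 11.4%, and 8.25% and 7.09%. Without yki3SA 3 and yki3SA+ITP-i 3 together the member counts were 9 and 6, 0 and 3, and 2 and 3. All genes then gave 13.0% and 11.9%, 7.17% and 5.97%, and 5.73% and 3.68%. Leaving out 1 library gave 6 to 13 and 6 to 12, 0 to 9 and 2 to 9, and 1 to 2 and 1 to 6 members. For all genes it gave 9.89% to 16.1% and 10.7% to 14.1% in the first comparison. It gave 5.92% to 10.8% and 3.87% to 8.69% in the second, and 4.02% to 6.1% and 2.09% to 4.3% in the third. With the fat body sum as a covariate the member counts were 0 and 0, 0 and 0, and 0 and 2, with the gut sum 0 and 0, 0 and 0, and 0 and 1, and with the ovary sum 6 and 4, 1 and 3, and 1 and 3. The shares of all genes were 0.0% and 0.00975%, 0.00975% and 0.0195%, and 3.52% and 1.78% with the fat body sum. They were 1.01% and 0.634%, 1.07% and 0.731%, and 3.82% and 1.84% with the gut sum. The ovary sum gave 9.74% and 8.15%, 6.95% and 5.56%, and 6.03% and 3.78%. The fat body covariate left 1 call among all genes in yki3SA against control. It reversed 8 log2 fold changes: in yki3SA against control LeuRS (-0.05), ThrRS (-0.02), ValRS (-0.05), Tsc1 (-0.01), eEF5 (0.06), eIF3f1 (0.02) and eIF3g1 (0.03), and in yki3SA+ITP-i against yki3SA eEF1beta (-0.04). The filter of 5 CPM in 3 libraries gave no value for eIF4E3, which it removes. Causes of these differences were not tested.

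The labels do not state whether replicate numbers pair the libraries. In their deviations from group means, same-numbered libraries correlated between -0.0815 and 0.175, and differently numbered libraries between -0.259 and 0.143. The highest values, 0.175, 0.166 and 0.155, were all between same-numbered libraries. The 2 ranges overlap, so they do not settle whether the numbers pair the libraries. With the replicate number as a block the counts were 13 and 10, 8 and 11, and 2 and 3, and 46 of the 50 calls stood. All genes then gave 16.7% and 14.4%, 11.5% and 10.8%, and 6.84% and 4.25%. With 3 libraries a group, the smallest log2 change called among members was 0.32, so a missing call does not show that levels were equal.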

Other observations

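4 genes of the pathway lists (cup, GatC, waw and HemK2) had 0 counts in all 9 libraries. In the Ensembl annotation 100% of the exon bases of each are shared with a gene on the same strand: CG34310 for cup, PolG2 for GatC, bbx for waw and Snapin for HemK2. Of the members, eIF5 (80.8%) and eIF2gamma (16%, with Su(var)3-9) share the most exon bases in this way. AspRS shares 73.5% of its exon bases with other genes on either strand and 6.8% on its own strand, and the strand setting of the counting is not stated. Its level was 60.3, 69.4 and 54.3 CPM in yki3SA+ITP-i, 60.9, 53 and 47.5 CPM in yki3SA, against 45.4, 54.2 and 45.9 CPM in control.

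The pathway column of the table marks 42 genes as aminoacyl-tRNA biosynthesis. They include all 35 synthetases described above. The yki3SA+ITP-i libraries carry the RNAi transgene, and ITP was called higher in them than in control (log2 0.67, adjusted p = 0.027).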
